A study of Mus musculus with 12 samples.

Results

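The genes described here are 37 genes of the endoplasmic reticulum (ER) that encode chaperones, folding enzymes, parts of the protein translocation channel and components of the unfolded protein response. They were listed by symbol for their known roles, and the rule that lists them uses no measured value. The genes and their roles were, however, chosen with earlier results of these data known. All 37 were found among the 48795 gene IDs of the count table, and 36 passed the filter on low counts. Derl3, a derlin, was the exception, with 3 to 7 reads per library. The 36 belong to 16831 genes tested.

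The study used antisense oligonucleotides (ASOs) against GI-SINE RNA, transcripts of growth-inducing B2 repeats, in primary culture. The cells came from the dorsal root ganglion (DRG) of mice, which houses sensory neurons and their supporting cells. Total RNA of whole cultures was sequenced. All mice had the genotype written C57/Bl6 wt, and the labels state neither age nor sex. Each of 4 mice gave a preparation of its own that was divided over 3 conditions: no transfection, 50 nM of a control ASO, or 50 nM of a mix of GI-SINE ASOs. Each condition therefore has 4 libraries, and each mouse appears in all conditions. Culture time and the level of GI-SINE RNA itself are not analysed here. Setting the mix against the control ASO asks what differed beyond transfecting the cells with an oligonucleotide. Setting the control ASO against no transfection gives the background of that step. In that comparison the transfection and the oligonucleotide cannot be told apart.

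The ER folds secreted and membrane proteins, and cells with long axons and high secretory load depend on it. When unfolded proteins build up there, the sensors IRE1 (encoded by Ern1), ATF6 and PERK signal to the nucleus: IRE1 splices the Xbp1 mRNA, ATF6 is cut in the Golgi to free a transcription factor, and PERK slows translation and favours ATF4. The resulting program raises chaperones such as BiP (Hspa5), their cofactors, and the machinery of ER-associated degradation, which pulls misfolded proteins back into the cytosol for the proteasome.

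ATF6 and the spliced form of XBP1 are known to act through short DNA elements, so the promoters of the 37 genes were read first. RefSeq promoter windows of build GRCm38.p6, which run from 250 bases before to 50 bases after an annotated start, were given for 31 of the 37 genes. The ER stress element, ERSE, was searched on both strands as CCAAT, then 9 bases of any kind, then CCACG. It was present in 9 of the 31 genes, and in 39 of all 32851 windows (0.119%). Counted by gene symbol, with the 31 genes included, 37 of 27025 had it. The related ERSE-II, searched on both strands as ATTGG, then 1 base of any kind, then CCACG, was present in Dnajb11 and Herpud1, and in 12 windows of all (0.0365%). The ERSE is known from studies of induced chaperone genes, so its larger share among these genes is not read as a result. The matches are shown with 12 bases on either side, read 5′ to 3′ on the strand that carries the motif. Capitals mark the fixed letters of the motif.
Hspa5, ERSE, chr2:34772025-34772043, plus strand: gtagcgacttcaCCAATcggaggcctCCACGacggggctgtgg
Hsp90b1, ERSE nearer the start, chr10:86705533-86705551, plus strand: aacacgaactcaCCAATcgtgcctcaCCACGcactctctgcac
Hsp90b1, ERSE farther from the start, chr10:86705638-86705656, minus strand: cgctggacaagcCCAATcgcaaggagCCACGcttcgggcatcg
Calr, ERSE, chr8:84847075-84847093, plus strand: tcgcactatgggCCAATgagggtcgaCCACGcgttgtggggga
Canx, ERSE, chr11:50325800-50325818, minus strand: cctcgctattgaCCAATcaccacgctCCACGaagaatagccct
Creld2, ERSE, chr15:88819520-88819538, minus strand: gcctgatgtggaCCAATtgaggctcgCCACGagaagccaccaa
Dnajc3, ERSE, chr14:118937827-118937845, plus strand: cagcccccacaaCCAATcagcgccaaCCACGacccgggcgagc
Pdia6, ERSE, chr12:17266491-17266509, plus strand: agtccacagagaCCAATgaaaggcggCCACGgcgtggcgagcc
Syvn1, ERSE, chr19:6046532-6046550, plus strand: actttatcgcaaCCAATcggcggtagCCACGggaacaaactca
Derl3, ERSE, chr10:75893242-75893260, minus strand: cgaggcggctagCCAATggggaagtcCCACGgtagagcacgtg
Herpud1, ERSE-II, chr8:94386377-94386387, plus strand: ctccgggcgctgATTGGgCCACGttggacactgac
Dnajb11, ERSE-II, chr16:22857852-22857862, plus strand: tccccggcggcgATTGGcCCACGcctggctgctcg

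The Hspa5 match began 65 bases before the RefSeq start and the Syvn1 match 44 bases before it, while the farther Hsp90b1 match began 212 bases before. In Dnajb11 the ERSE-II began 7 bases after the start. The core of the XBP1 element, TGACGTGG, was found on neither strand of any of the 31 genes and in 222 of all windows (0.676%). The short letters CCACG, which are contained in ERSE and ERSE-II, and as CGTGG in that core, were in 26 of the 31 genes and in 32.8% of all windows. Counted by gene symbol, 9589 of 27025 had them. A match describes these letters alone and is neither evidence of binding nor a cause of any change below.

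For comparison, the 250 bases before the RefSeq start of Hspa5 hold 1 exact match to the ERSE letters. Those of Dnajb9, the gene with the largest rise below, hold no exact ERSE match but 2 CCACG matches. Inexact copies of the element were not searched in any window. The Hspa5 stretch is chr2:34771840-34772089, plus strand, with the fixed letters of the ERSE in capitals. The Dnajb9 stretch is chr12:44210069-44210318, minus strand, with CCACG in capitals.
Hspa5: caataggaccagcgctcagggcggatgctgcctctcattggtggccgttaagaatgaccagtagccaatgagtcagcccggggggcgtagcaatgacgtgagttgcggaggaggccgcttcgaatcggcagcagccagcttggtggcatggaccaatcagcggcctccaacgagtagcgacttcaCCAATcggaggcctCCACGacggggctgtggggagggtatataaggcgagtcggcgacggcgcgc
Dnajb9: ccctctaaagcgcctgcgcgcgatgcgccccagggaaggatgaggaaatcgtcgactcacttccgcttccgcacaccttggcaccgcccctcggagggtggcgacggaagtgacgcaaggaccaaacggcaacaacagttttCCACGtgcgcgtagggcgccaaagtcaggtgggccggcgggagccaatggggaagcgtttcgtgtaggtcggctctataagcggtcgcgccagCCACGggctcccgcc

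The libraries held 14864622 to 22704267 counts. The first principal component of all tested genes held 57.3% of the variance. On it, mice 1 to 3 scored 64.4 to 72.3 in their mix libraries but mouse 4 scored 25.9, so the main rises with the mix are also given with mouse 4 left out. Sensory neuron markers were detected for 16 of 16 listed genes, with a summed level of 7231 to 12024 CPM. CPM, the unit of all levels below, is a count scaled to a fixed library size after normalisation. Values are listed in the order of mice 1 to 4, means are given with the SD over 4 libraries, and log2 fold changes carry the standard error (SE) of the edgeR fit. A gene was called changed at a Benjamini-Hochberg adjusted p under 0.05 in edgeR's quasi-likelihood test over all 16831 genes. The spread between libraries of a group is that between 4 mice.

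In untransfected cultures the abundant chaperones stood far above the rest. Per kilobase of exon, Calr (128 ± 5.39 CPM per kb, SD, n = 4) and Hspa5 (117 ± 6.01) led, followed by Canx (83.8 ± 0.805), Pdia3 (76.4 ± 3.79), P4hb (69.0 ± 4.15) and Hsp90b1 (52.4 ± 2.75). A gap separated these 6 from Ssr3 at 31.1 ± 2.36 CPM per kb. Neighbours from Ssr3 down through Herpud1, Derl1, Pdia4 and Ssr2 (28.0 ± 1.92) overlapped within their SDs. Among the sensors, Atf6b (18.5 ± 0.532) and Atf6 (13.7 ± 1.37) were above Ern1 (7.02 ± 0.540), and Fkbp11 (0.579 ± 0.0959) and Derl3 (0.116 ± 0.0646) closed the order.

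**Figure D1:**
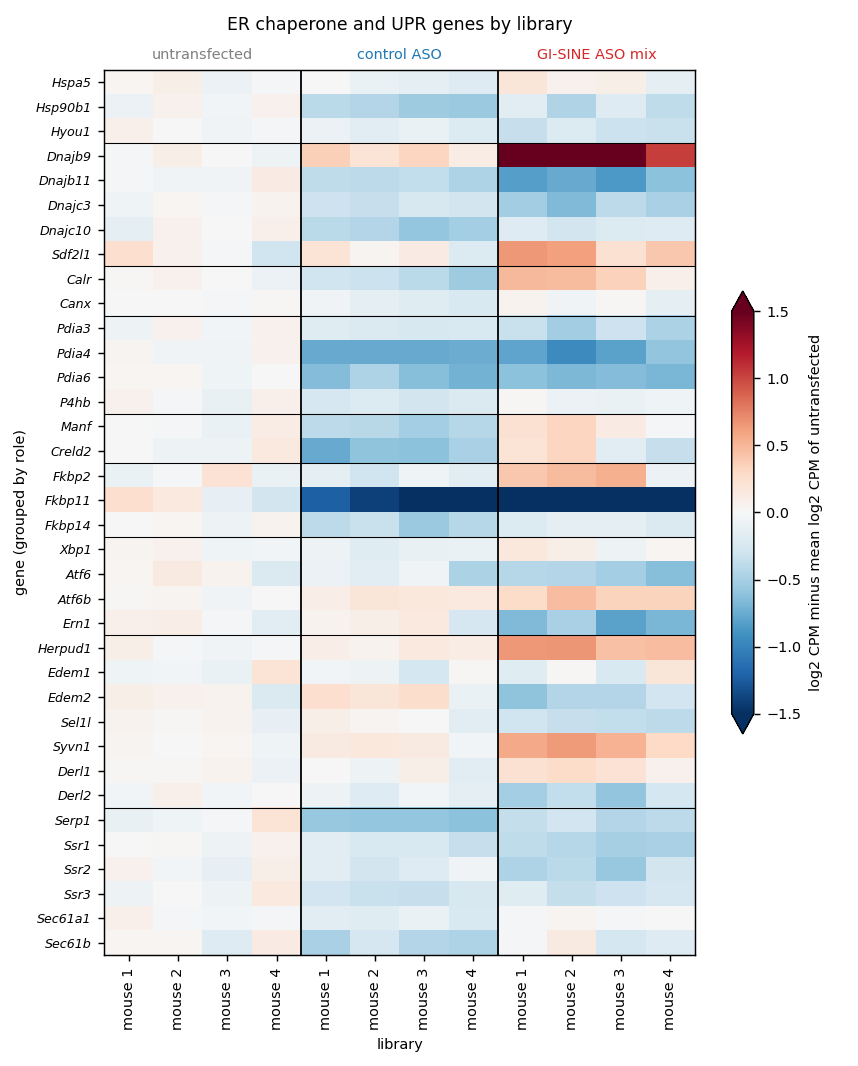
Level of 36 ER chaperone and unfolded protein response (UPR) genes in each of 12 libraries, as the log2 CPM minus the mean log2 CPM of the 4 untransfected libraries (colour, saturated beyond 1.5 in either direction), with genes grouped by role. Dnajb9 is dark red in the mix libraries of mice 1 to 3 and lighter in that of mouse 4, and Pdia4 and Pdia6 are blue in all 8 libraries of both ASO groups.

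Against the control ASO, the mix raised some ER genes and lowered others: 20 of the 36 were higher, 11 were lower and 5 were not called, with a median log2 fold change of 0.16. Over all tested genes, 56.2% were called, 27.3% higher and 28.8% lower, with a median of -0.03. Dnajb9, Calr, Creld2 and Manf were the risers of at least 1.5-fold, and Ern1 and Edem2 the fallers of at least 1.5-fold. The calls of Dnajb9, Calr, Manf, Creld2, Herpud1 and Syvn1 among the 20, and of Dnajb11, Atf6, Ern1, Edem2, Sel1l and Ssr2 among the 11, stayed past the adjusted p threshold in each of 14 refits with another setting, the fold criterion of 1.5 being left aside. The size of the group of risers depended on the scaling: with library size as the sole scaling factor, which moved the median of all genes by -0.12, 8 were higher and 13 lower, and of all called genes 34.0% instead of 48.7% were higher. Without mouse 1, 13 were higher, and without mouse 4, 20 were higher and 11 lower. In bulk samples such as these, fewer cells of a type and less RNA per cell cannot be told apart.

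Many of these genes were lower in control ASO cultures than in untransfected cultures, and none that passed the test was higher. With edgeR 21 of the 36 were lower, 0 higher and 15 not called, and the median was -0.18. Of all tested genes, 24.2% were called, 10.5% higher and 13.7% lower, with a median of 0.03. The share of all called genes that were higher was 43.5%, and it ranged from 29.6% without mouse 3 to 55.4% with library size as the sole factor. At an unadjusted p under 0.05, Dnajb9 and Atf6b were higher, and both DESeq2 and limma-voom also called 0 genes higher. With a fold change of at least 1.5 also asked for, 5 of the 21 were left (Pdia4, Pdia6, Creld2, Fkbp11 and Serp1). On the adjusted p alone, 15 of the 21 passed in each refit that could be run: Hsp90b1, Dnajb11, Dnajc3, Dnajc10, Calr, Pdia4, Pdia6, P4hb, Manf, Creld2, Fkbp11, Fkbp14, Serp1, Ssr3 and Sec61b.

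Set directly against untransfected cultures, the mix left 9 of the 36 higher, 18 lower and 9 not called, with a median of -0.20. Of all tested genes 61.2% were called in that comparison, 30.1% higher and 31.1% lower, with a median of -0.02. The 9 higher genes were Dnajb9, Sdf2l1, Calr, Manf, Fkbp2, Atf6b, Herpud1, Syvn1 and Derl1, and of these Dnajb9, Calr, Herpud1 and Syvn1 passed on the adjusted p in each of the 14 refits. A fold change of at least 1.5 left Dnajb9 alone among the 9. The 3 comparisons share libraries in pairs, so levels and differences are given gene by gene below, and no overlap between comparisons is read as a result.

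**Figure D2:**
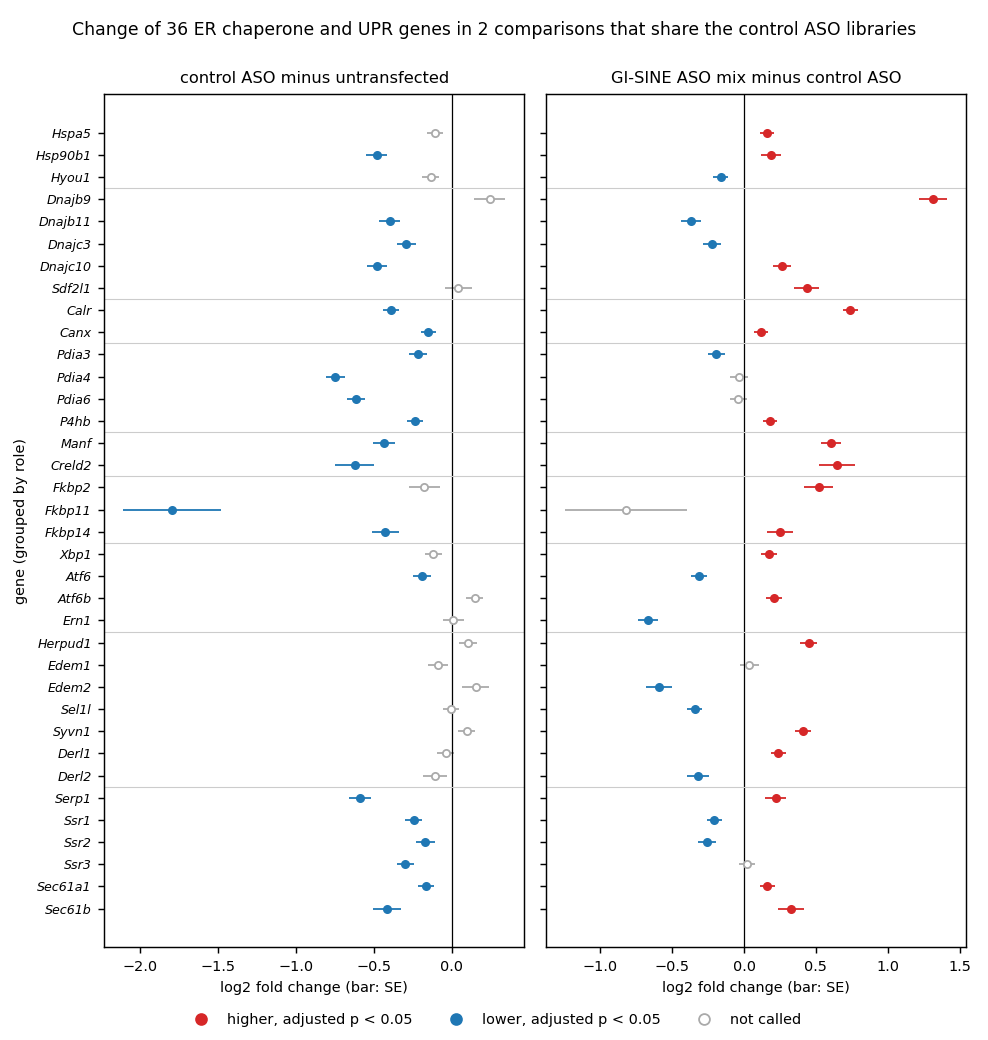
Fitted log2 fold change (horizontal axis, bar SE) of each of the 36 tested genes, for the control ASO minus untransfected (left) and the GI-SINE ASO mix minus the control ASO (right), n = 4 libraries per group. The left panel holds 21 blue points and no red one, and the right panel holds 20 red points, led by Dnajb9 at 1.32, and 11 blue ones. With library size as the sole scaling factor 8 would be red in the right panel.

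Of the HSP70 and HSP90 chaperones of the ER, Hspa5 and Hyou1 changed by small amounts and Hsp90b1 fell with the control ASO. Hspa5 encodes BiP, the HSP70 that holds the sensors inactive until unfolded proteins draw it away. It stood at 504, 525, 465 and 489 CPM in untransfected cultures, at 497, 464, 446 and 432 CPM under the control ASO, and at 562, 517, 527 and 451 CPM with the mix. The groups overlapped, and within each mouse the mix library was above the control ASO library. The difference of the mix from the control ASO was 0.16 ± 0.05 (SE; edgeR adjusted p = 0.0135), that of the control ASO from untransfected was -0.11 ± 0.05 (adjusted p = 0.13), and that of the mix from untransfected was 0.05 ± 0.05 (adjusted p = 0.425). The call of Hspa5 was lost without mouse 1, 2 or 3 (adjusted p 0.0613, 0.0508 and 0.0602) and with library size as the sole factor (log2 difference 0.04), a scaling under which its difference from untransfected turned to -0.04.

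Hsp90b1, the HSP90 of the ER lumen, was lower with the control ASO in 4 of 4 mice. It fell from 211 ± 11.1 CPM (SD, n = 4) untransfected to 152 ± 7.64 with the control ASO (log2 fold change -0.48 ± 0.07, edgeR adjusted p = 4e-05), with no overlap between the groups. With the mix it stood at 173 ± 17.4 CPM, which was called higher than the control ASO (0.19, edgeR adjusted p = 0.0259) and was higher in 3 of 4 mice. That call was lost without mouse 1 (0.17, adjusted p = 0.0868) or mouse 3 (0.16, adjusted p = 0.122). It was also lost with library size as the sole factor (0.065, adjusted p = 0.457) and without the mouse term (0.19, adjusted p = 0.0502). Against untransfected, Hsp90b1 was lower with the mix (-0.29 ± 0.07, edgeR adjusted p = 0.00103), with no overlap between the groups, and this call held in each of 14 refits. Of the exons of Hsp90b1, 632 bases are shared with other annotated genes. Hyou1, which exchanges the nucleotide of BiP, was lower with the mix than in untransfected cultures (147 ± 6.87 against 181 ± 6.85 CPM, -0.30 ± 0.05, adjusted p = 7.97e-05). Its smaller fall against the control ASO (-0.16, adjusted p = 0.0141) was lost without mouse 1 (-0.13) or mouse 3 (-0.12) and after removal of the trend in transcript length and GC content (-0.082, adjusted p = 0.111), which also took its fall against untransfected to -0.16.

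The cofactors of BiP went in opposite directions. Dnajb9 encodes a J-domain protein that delivers clients to BiP and also helps BiP hold IRE1 inactive. Untransfected cultures had 40.8, 43.8, 41.5 and 39.1 CPM, control ASO cultures 53.1, 47.4, 51.4 and 44.7 CPM, and mix cultures 153, 130, 127 and 84.8 CPM. Each mix library was above each library of the other groups, and mouse 4 had the lowest mix value. Dnajb9 rose 2.49-fold over the control ASO (log2 fold change 1.32 ± 0.10, edgeR adjusted p = 2.25e-07) and 2.95-fold over untransfected (1.56 ± 0.10, adjusted p = 1.49e-08). Without mouse 4 these log2 differences were 1.44 and 1.69. The control ASO gave 0.24 ± 0.10 over untransfected (adjusted p = 0.0957), which passed without mouse 4 (0.25, adjusted p = 0.00907) and in a fit of those groups alone (0.23, adjusted p = 0.000482).

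Dnajb11, a J-domain protein that binds nascent chains with BiP, took the opposite course. Its level was 42.9, 41.9, 41.9 and 47.3 CPM untransfected, 33.3, 33.1, 33.6 and 31.5 CPM with the control ASO, and 24.4, 25.6, 23.9 and 28.2 CPM with the mix. The 3 groups did not overlap. It fell by 0.40 with the control ASO (SE 0.07, edgeR adjusted p = 0.00021) and by a further 0.37 with the mix (SE 0.07, adjusted p = 0.000202), to -0.77 ± 0.07 against untransfected (adjusted p = 2.7e-08).

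Dnajc3, a J-domain protein known as an inhibitor of PERK, followed the same order of groups, at 55.0 ± 2.05, 44.9 ± 1.32 and 38.5 ± 2.87 CPM. It was called lower in each comparison, and its fall against the control ASO (-0.22) was lost once the length and GC trend was taken out (-0.10, adjusted p = 0.128), while its falls of 0.29 and 0.51 against untransfected became -0.20 and -0.29. Dnajc10, a reductase of disulfide bonds with a J domain, fell with the control ASO (63.3 ± 4.10 to 45.3 ± 2.37 CPM, -0.48 ± 0.06, adjusted p = 1.69e-05) and stood at 54.4 ± 1.57 CPM with the mix. Its rise over the control ASO was 0.26 ± 0.06 (adjusted p = 0.00197), or 0.14 (adjusted p = 0.0845) with library size as the sole factor. Its fall of the mix against untransfected (-0.22) was lost without mouse 2 (-0.18, adjusted p = 0.0639) and without that trend (-0.097, adjusted p = 0.128). Sdf2l1, a partner of Dnajb11 in the lumen, had 28.1, 27.5, 21.03 and 23.7 CPM with the mix against 20.6, 18.5, 19.5 and 15.6 CPM with the control ASO. The ranges did not overlap and the log2 difference was 0.43 ± 0.08 (adjusted p = 0.0003), or 0.19 (adjusted p = 0.0616) after removal of the length and GC trend. Against untransfected, where the groups overlapped, it went from 0.48 to 0.19 (adjusted p = 0.0554).

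**Figure D3:**
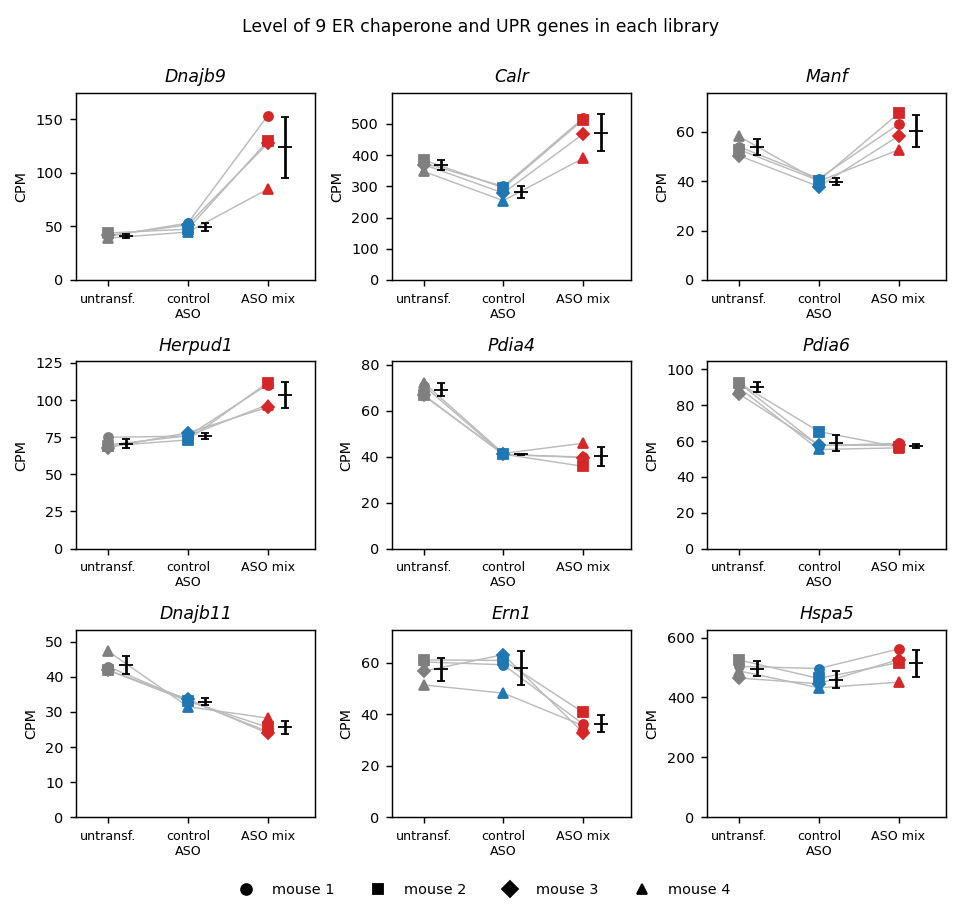
CPM (vertical axes, from 0) of 9 ER genes in each library by group, with a symbol for each mouse, a grey line joining the libraries of 1 mouse, and a black bar for the group mean and SD (n = 4). Dnajb9 reaches 153 CPM with the mix, Pdia4 stays at 41.0 to 41.4 CPM in the control ASO group, below each untransfected library, and Ern1 is lower in each mix library than in any library of the other groups.

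The lectin chaperones calreticulin (Calr), soluble in the lumen, and calnexin (Canx), its membrane-bound counterpart, hold newly made glycoproteins until they fold. Calr stood at 375, 385, 370 and 348 CPM untransfected, at 300, 295, 278 and 254 CPM with the control ASO, and at 518, 513, 468 and 390 CPM with the mix. None of the groups overlapped. Calr fell with the control ASO (-0.39 ± 0.05, edgeR adjusted p = 1.38e-05), and with the mix it was 1.67-fold the control ASO level (0.74 ± 0.05, adjusted p = 1.29e-08) and 1.27-fold the untransfected level (0.35 ± 0.05, adjusted p = 1.1e-05). Without mouse 4 the last 2 log2 differences were 0.79 and 0.40.

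Canx changed far less, from 393 ± 3.78 CPM untransfected to 355 ± 17.8 with the control ASO and 385 ± 23.9 with the mix. Its call against the control ASO (0.12, edgeR adjusted p = 0.0441) was lost without mouse 1 (0.12, adjusted p = 0.115), mouse 2 (0.13, adjusted p = 0.0893) or mouse 3 (0.11, adjusted p = 0.145). The call of the control ASO against untransfected (-0.15, adjusted p = 0.0293) was also lost without mouse 1 (-0.18, adjusted p = 0.056), mouse 2 (-0.16, adjusted p = 0.0901) or mouse 3 (-0.15, adjusted p = 0.11), and after removal of the length and GC trend (-0.091, adjusted p = 0.0866). The difference of the mix from the control ASO was -0.0035 with library size as the sole factor.

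The 4 protein disulfide isomerases, which form and rearrange disulfide bonds in folding proteins, were all called lower with the control ASO. Of all tested genes, 13.7% were called lower there. Pdia4 had 70.9, 66.6, 66.9 and 72.2 CPM untransfected, 41.0, 41.1, 41.0 and 41.4 CPM with the control ASO, and 39.8, 35.8, 39.6 and 45.8 CPM with the mix. The untransfected libraries stood apart from those of both ASO groups, which overlapped each other. The control ASO difference was -0.75 ± 0.06 (edgeR adjusted p = 3.98e-08) and the mix difference from untransfected was -0.78 ± 0.06 (adjusted p = 6.05e-09). Pdia6 had 92.4, 92.4, 86.3 and 89.8 CPM untransfected, 57.5, 65.3, 57.7 and 55.3 CPM with the control ASO and 58.7, 56.7, 57.7 and 56.2 CPM with the mix, the same layout.

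For both genes the mix was close to the control ASO, at -0.04 ± 0.06 for Pdia4 (edgeR adjusted p = 0.648) and -0.04 ± 0.06 for Pdia6 (adjusted p = 0.583). Without mouse 2 these differences were 0.018 and 0.017, and with library size as the sole factor both genes were called lower (-0.16 each). Pdia3, the isomerase that works with calnexin and calreticulin, went down in steps, from 240 ± 11.9 to 206 ± 4.24 and 181 ± 12.7 CPM. It was called lower in each comparison, and without mouse 2 neither step passed (-0.20, adjusted p = 0.0568, and -0.16, adjusted p = 0.0684). P4hb, the founding protein disulfide isomerase and a subunit of collagen prolyl hydroxylase, fell with the control ASO (-0.24 ± 0.05, adjusted p = 0.00178) and was higher with the mix than with the control ASO (189 ± 7.34 against 167 ± 3.49 CPM, 0.18 ± 0.05, adjusted p = 0.00545). That rise was 0.15 without mouse 1 (adjusted p = 0.0633) and 0.06 with library size as the sole factor (adjusted p = 0.351). Against untransfected, P4hb with the mix differed by -0.06 (edgeR adjusted p = 0.315). It was called lower there with library size as the sole factor (-0.15) and after removal of the length and GC trend (-0.16).

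The stress factors Manf, a secreted protein with neurotrophic activity that binds BiP, and Creld2, a luminal protein with isomerase activity, both fell with the control ASO and were both higher with the mix than with the control ASO. Manf had 54.0, 52.8, 50.4 and 58.2 CPM untransfected, 41.1, 40.2, 37.8 and 39.996 CPM with the control ASO, and 63.1, 67.5, 58.3 and 52.7 CPM with the mix. Control ASO libraries lay below all others, and the mix and untransfected libraries overlapped. The steps were -0.44 ± 0.07 (edgeR adjusted p = 0.000144) and 0.60 ± 0.07 (adjusted p = 1.71e-06). The difference of the mix from untransfected (0.16, adjusted p = 0.047) did not pass without mouse 1 (0.15, adjusted p = 0.176), mouse 2 (0.10, adjusted p = 0.321) or mouse 3 (0.16, adjusted p = 0.132) or after removal of the length and GC trend (0.049, adjusted p = 0.52), and was higher in 3 of 4 mice. Without mouse 4, the mix differed by 0.67 from the control ASO and by 0.25 from untransfected. The annotated exons of Manf share 326 bases with other genes.

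Creld2 had 14.0, 13.3, 13.3 and 15.4 CPM untransfected, 8.25, 9.22, 9.11 and 9.95 CPM with the control ASO, and 16.1, 17.4, 12.5 and 11.02 CPM with the mix. The control ASO group again lay below both other groups, and within the mix group mice 3 and 4 were the lower libraries. It fell by 0.62 with the control ASO (SE 0.12, edgeR adjusted p = 0.00138) and was 0.65 ± 0.13 higher with the mix than with the control ASO (adjusted p = 0.000333), or 0.80 without mouse 4. Against untransfected the mix differed by 0.02 ± 0.12 (adjusted p = 0.885), and this small value was negative without mouse 1 (-0.04) or mouse 2 (-0.11) and with library size as the sole factor (-0.07).

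The FK506-binding prolyl isomerases speed the turning of peptide bonds at proline. Fkbp11 was the least abundant tested gene, with 41, 33, 24 and 30 reads untransfected, 15, 14, 3 and 6 reads with the control ASO and 5, 5, 6 and 3 reads with the mix. All untransfected libraries were above all others. The log2 fold change was -1.80 ± 0.31 with the control ASO (edgeR adjusted p = 0.00033) and -2.61 ± 0.35 with the mix against untransfected (adjusted p = 4.33e-06), while the mix differed from the control ASO by -0.82 ± 0.42 (adjusted p = 0.109), or by -1.19 without mouse 3 (adjusted p = 0.0401).

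Fkbp14, known for its link to collagen folding, fell with the control ASO (11.999 ± 0.437 to 8.93 ± 0.575 CPM, -0.43 ± 0.09, edgeR adjusted p = 0.00163). With the mix it was at 10.6 ± 0.328 CPM, a rise of 0.25 over the control ASO (adjusted p = 0.0241) that did not pass without mouse 1 (0.28, adjusted p = 0.0581), mouse 2 (0.27, adjusted p = 0.0581) or mouse 3 (0.22, adjusted p = 0.106). Against untransfected, Fkbp14 with the mix differed by -0.18 (edgeR adjusted p = 0.0914). It was called lower there with library size as the sole factor (-0.26) and after removal of the length and GC trend (-0.20). Fkbp2 had 16.9, 17.8, 18.4 and 12.1 CPM with the mix and 11.5, 10.4, 12.2 and 11.4 CPM with the control ASO, so only the mix library of mouse 4 reached into the control range. Its rise was 0.52 ± 0.10 (adjusted p = 0.000279), 0.65 without mouse 4, and 0.21 (adjusted p = 0.0596) after removal of the length and GC trend. Against untransfected its rise of 0.34 turned to -0.08 with that trend removed, and did not pass without mouse 1 (0.29, adjusted p = 0.0586).

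Among the sensors, Ern1 fell with the mix while its substrate Xbp1 did not fall. Ern1 had 60.3, 61.1, 56.7 and 51.4 CPM untransfected, 59.2, 60.8, 63.1 and 48.2 CPM with the control ASO, and 36.1, 40.7, 32.8 and 35.5 CPM with the mix. Each mix library was below each of the other 8. The fall was -0.67 ± 0.07 against the control ASO (edgeR adjusted p = 5.75e-07) and -0.66 ± 0.07 against untransfected (adjusted p = 2.51e-07), and the control ASO differed from untransfected by 0.01 ± 0.07 (adjusted p = 0.934). After removal of the length and GC trend, the fall against untransfected was -0.38. The difference of the control ASO from untransfected was -0.05 without mouse 3 and took either sign under the other alternatives.

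Xbp1 stood at 85.6 ± 3.68 CPM untransfected, 78.7 ± 2.34 with the control ASO and 88.8 ± 6.06 with the mix. Counts per gene do not separate its spliced from its unspliced mRNA. Its difference from the control ASO (0.17, edgeR adjusted p = 0.0129) did not pass without mouse 1 (0.15, adjusted p = 0.0894) or mouse 2 (0.14, adjusted p = 0.0954), after removal of the length and GC trend (0.073, adjusted p = 0.206), or with library size as the sole factor (0.05), under which its difference from untransfected went from 0.05 to -0.03. The paralogs Atf6 and Atf6b, both transcription factors held in the ER membrane, moved apart. Atf6 had 129, 139, 130 and 109 CPM untransfected, 119, 113, 122 and 90.9 CPM with the control ASO and 93.6, 92.9, 88.6 and 81.3 CPM with the mix. The mix libraries lay below the untransfected ones and overlapped the control ASO group through its mouse 4. Atf6 fell by 0.31 against the control ASO (SE 0.06, adjusted p = 0.000145) and by 0.50 against untransfected (SE 0.06, adjusted p = 4.77e-07), and its fall with the control ASO (-0.19, adjusted p = 0.0184) did not pass without mouse 2 (-0.16, adjusted p = 0.138), without the mouse term (adjusted p = 0.209) or after removal of the length and GC trend (-0.042, adjusted p = 0.559). That removal took the falls of Atf6 with the mix to -0.13 and -0.17, both still called. Atf6b rose to 65.1 ± 3.62 CPM with the mix from 56.4 ± 1.25 with the control ASO and 50.9 ± 1.47 untransfected (0.21 ± 0.05, adjusted p = 0.00388, and 0.35 ± 0.06, adjusted p = 2.28e-05). After removal of the length and GC trend, these differences were 0.02 and 0.07 and neither passed.

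None of the 7 tested genes of ER-associated degradation was called in the control ASO comparison by edgeR, DESeq2 or limma-voom. None of the 7 had an unadjusted p under 0.05, and of all tested genes edgeR called 24.2% in that comparison. After removal of the length and GC trend Sel1l alone passed there, at 0.11. With the mix, 3 of the 7 rose, 3 fell and 1 was not called against the control ASO (27.3% and 28.8% of all tested genes were higher and lower). Herpud1, a scaffold of the ubiquitin ligase complex, had 74.9, 69.1, 68.0 and 69.8 CPM untransfected, 75.7, 73.1, 77.9 and 75.9 CPM with the control ASO and 110, 112, 95.2 and 96.8 CPM with the mix. Each mix library was above the other 8. Herpud1 rose by 0.45 ± 0.06 over the control ASO (edgeR adjusted p = 6.36e-06) and by 0.55 ± 0.06 over untransfected (adjusted p = 3.05e-07), or 0.49 and 0.57 without mouse 4.

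Syvn1, the ubiquitin ligase itself, had 79.3, 76.9, 79.2 and 74.1 CPM untransfected, 84.7, 86.3, 85.1 and 75.2 CPM with the control ASO and 115, 120, 111 and 94.8 CPM with the mix. The mix libraries were again above the other 8. The rise was 0.41 ± 0.05 over the control ASO (edgeR adjusted p = 6.69e-06) and 0.51 ± 0.05 over untransfected (adjusted p = 3.18e-07), or 0.44 and 0.54 without mouse 4. Sel1l, the adaptor that keeps that ligase stable, moved the opposite way, from 170 ± 9.33 CPM untransfected and 169 ± 12.1 with the control ASO to 133 ± 3.59 with the mix (-0.34 ± 0.05 against the control ASO, adjusted p = 1.54e-05). After removal of the length and GC trend, that fall was -0.18, and its fall against untransfected went from -0.35 to -0.07 (adjusted p = 0.144).

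Edem2, which trims mannose from glycoproteins that fail to fold, had 31.2, 30.6, 30.5 and 25.3 CPM untransfected, 34.9, 33.2, 35.2 and 27.3 CPM with the control ASO and 19.2, 21.6, 21.7 and 24.04 CPM with the mix. The mix libraries lay below all others, with mouse 4 nearest to them. Edem2 fell by 0.59 against the control ASO (SE 0.09, edgeR adjusted p = 2.8e-05), or by 0.72 without mouse 4, and by 0.44 against untransfected (SE 0.09, adjusted p = 0.000384). Its relative Edem1 was not called in any comparison by edgeR, with group means of 38.4 ± 3.87, 36.02 ± 3.01 and 37.1 ± 4.97 CPM, and once the length and GC trend was taken out it was higher with the mix than with the control ASO (0.20, adjusted p = 0.00937) and than untransfected (0.23, adjusted p = 0.00302).

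The derlins form part of the channel through which proteins leave the ER. Derl1 was higher with the mix than with the control ASO (115 ± 7.23 against 97.3 ± 6.88 CPM, 0.24 ± 0.05, edgeR adjusted p = 0.00091), or 0.11 (adjusted p = 0.0611) with library size as the sole factor. Derl2 was lower (23.3 ± 2.39 against 29.0 ± 1.35 CPM, -0.32 ± 0.08, adjusted p = 0.00176), or -0.22 (adjusted p = 0.0508) without mouse 3. Its fall against untransfected (-0.43) was -0.28 after removal of the length and GC trend, and 231 of its exon bases are shared with Mis12. Derl3 had 0.231 ± 0.129, 0.240 ± 0.0496 and 0.240 ± 0.0917 CPM in the 3 groups, and no difference in it was detectable at this depth.

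Of all tested genes, 13.7% were called lower with the control ASO than untransfected. The 6 genes of the translocon, the channel that threads new proteins into the ER, and of its partners were all called lower. Serp1, which stabilises proteins at the channel during stress, fell the most of these, from 42.5, 43.9, 45.2 and 53.2 CPM to 31.1, 30.8, 30.7 and 30.2 CPM (-0.59 ± 0.07, edgeR adjusted p = 6.05e-06). The groups did not overlap. Sec61b, a small subunit of the channel, fell from 15.2 ± 1.36 to 11.4 ± 0.910 CPM (-0.41 ± 0.09, adjusted p = 0.00241), and the channel subunit Sec61a1 from 173 ± 6.66 to 154 ± 5.90 CPM (-0.17, adjusted p = 0.0224). Ssr1, Ssr2 and Ssr3, subunits of the translocon-associated protein complex, fell by 0.24, 0.17 and 0.30. After removal of the length and GC trend, the fall of Ssr1 was -0.058 (adjusted p = 0.419). Calls of Sec61a1 and Ssr2 were lost with a mouse left out: without mouse 1 the values were -0.14 (adjusted p = 0.139) and -0.15 (adjusted p = 0.2), without mouse 2 they were -0.17 (adjusted p = 0.085) and -0.15 (adjusted p = 0.171), and without mouse 3 Ssr2 was at -0.21 (adjusted p = 0.0661).

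With the mix, these genes split. Serp1 (35.8 ± 1.59 CPM, 0.22 ± 0.07 over the control ASO, edgeR adjusted p = 0.0147), Sec61a1 (172 ± 3.98 CPM, 0.16 ± 0.05, adjusted p = 0.0119) and Sec61b (14.3 ± 1.81 CPM, 0.33 ± 0.09, adjusted p = 0.00519) were higher than with the control ASO. Ssr2 (38.8 ± 3.28 CPM, -0.26 ± 0.06, adjusted p = 0.00162) and Ssr1 (99.3 ± 3.80 CPM, -0.21 ± 0.05, adjusted p = 0.00361) were lower, and Ssr3 was not called (0.02 ± 0.06, adjusted p = 0.754; -0.0029 without mouse 1 and -0.10 with library size as the sole factor). The rises did not pass with library size as the sole factor (0.10 for Serp1, 0.04 for Sec61a1 and 0.20 for Sec61b). Without mouse 2 those of Serp1 (0.19, adjusted p = 0.0842) and Sec61a1 (0.14, adjusted p = 0.0836) were lost, without mouse 1 that of Sec61b (0.28, adjusted p = 0.0527; 0.049 after removal of the length and GC trend, adjusted p = 0.637), and without mouse 3 the fall of Ssr1 (-0.16, adjusted p = 0.0598). After that removal Ssr1 was at 0.0071 against the control ASO, its fall against untransfected went from -0.45 to -0.051 (adjusted p = 0.394), and that of Serp1 from -0.37 to -0.19. Against untransfected, the mix lowered Ssr2 by 0.43 (edgeR adjusted p = 7.62e-06) and Ssr3 by 0.28 (adjusted p = 0.000261), and both calls held in each of 14 refits. Exon bases are shared with other genes in Ssr2 (239), Sec61a1 (549) and Serp1 (72).

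Other genes of the same pathway were counted on 8 further lists, to be read against all tested genes, of which 27.3% were higher and 28.8% lower with the mix than with the control ASO, and 10.5% and 13.7% with the control ASO than untransfected. In the PERK arm, 7 of 14 genes were higher and 5 lower with the mix than with the control ASO, and 3 were higher and 1 lower with the control ASO than untransfected. Atf4, the transcription factor whose translation PERK favours, rose with the mix (568 ± 67.0 against 395 ± 19.2 CPM, 0.52 ± 0.05, edgeR adjusted p = 4.07e-07). Eif2ak3, which encodes PERK, fell (-0.69 ± 0.09, adjusted p = 1.32e-05), as did Ddit3, the stress factor CHOP (-0.36 ± 0.07, adjusted p = 0.000206). Ddit3 was higher with the control ASO than untransfected (0.35 ± 0.07, adjusted p = 0.000895).

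Of the ATF6-processing and CREB3-family list, 3 of 10 tested genes were higher and 4 lower with the mix than with the control ASO, and 1 was higher and 3 lower with the control ASO. Mbtps1, the protease that makes the first cut in ATF6, fell with the mix (-0.57 ± 0.06, edgeR adjusted p = 7.61e-07), and Creb3, a related membrane-held factor, rose (0.49 ± 0.06, adjusted p = 1.72e-06). Creb3l1 fell with the control ASO (-1.29 ± 0.13, adjusted p = 3.5e-06). Of other ER chaperones and foldases, 3 of 17 were higher and 6 lower with the mix, and 0 higher and 8 lower with the control ASO. In that list Serpinh1, the collagen chaperone, fell by 2.57 with the control ASO (SE 0.24, adjusted p = 0.000413), and Fkbp9 and Fkbp10 fell in both steps (log2 changes of -1.60 and -0.74 for Fkbp9, and of -1.90 and -2.23 for Fkbp10).

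The oxidative folding list had 2 of 14 genes higher and 5 lower with the mix than with the control ASO, and 1 higher and 3 lower with the control ASO, among them Erp44, which retains unfinished proteins (-0.65 ± 0.08, edgeR adjusted p = 1.11e-05). For N-glycosylation and glycoprotein quality control, 6 of 18 were higher and 3 lower with the mix, and 0 higher and 9 lower with the control ASO. Stt3a and Stt3b, the catalytic subunits of the oligosaccharyl transferase, were among those 9 (-0.50 ± 0.05, adjusted p = 1.07e-06, and -0.38 ± 0.05, adjusted p = 3.9e-05). Prkcsh, a subunit of a glucosidase that takes part in glycan trimming, rose with the mix over the control ASO (0.59 ± 0.06, adjusted p = 5.07e-07).

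Other ER-associated degradation genes gave 5 of 16 higher and 6 lower with the mix than with the control ASO, and 1 higher and 2 lower with the control ASO. Of other translocon and signal peptide genes, 9 of 20 tested were higher and 6 lower with the mix, and 0 higher and 9 lower with the control ASO, where Tram2 fell by 1.71 (SE 0.13, edgeR adjusted p = 2.15e-08). Of the collagen-modifying ER enzymes, 1 of 13 was higher and 9 lower with the mix, and 0 higher and 8 lower with the control ASO. P4ha1, the catalytic partner of P4hb, fell in both steps (-0.82 ± 0.08, adjusted p = 2.55e-07, and -0.69 ± 0.08, adjusted p = 2.07e-06). The median log2 fold change of that list with the control ASO was -0.59, beside -0.18 for the 36 genes and 0.03 for all genes tested.

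**Figure D4:**
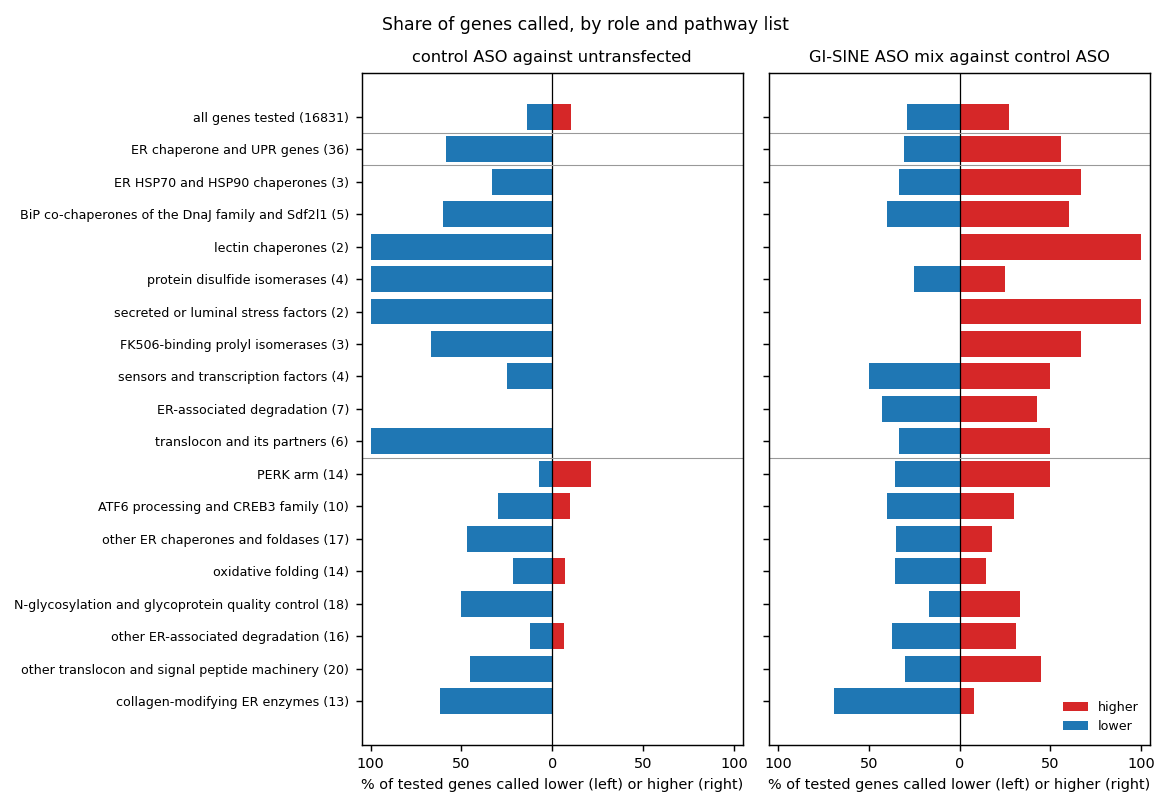
Percent of the tested genes of each list (number in parentheses) called lower (bar to the left, blue) or higher (bar to the right, red) by edgeR at an adjusted p under 0.05, for the control ASO against untransfected (left panel) and the GI-SINE ASO mix against the control ASO (right panel), with all genes tested in the top row. In the left panel the 7 tested genes of ER-associated degradation have no bar and the 6 of the translocon reach 100% lower. All genes tested stand at 10.5% higher and 13.7% lower in the left panel, and at 27.3% higher and 28.8% lower in the right panel. With library size as the sole scaling factor the 36 genes had 8 rather than 20 higher in the right panel.

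The levels of cell type markers differed between the groups. Summed fibroblast markers (12 genes) were at 822 to 1124 CPM untransfected, 102 to 238 CPM with the control ASO and 56.0 to 154 CPM with the mix, and 9 of 12 were called lower with the control ASO and 6 of 12 with the mix against the control ASO. Summed Schwann cell markers (12 genes) were at 906 to 1155, 621 to 695 and 687 to 855 CPM, with 9 of 11 tested genes lower with the control ASO. Against the control ASO the mix had 7 of these 11 lower and 2 higher, with a median of -0.84, although the sum was higher. Mag, a myelin gene, was at 0 in all control ASO libraries. Summed mural cell markers (8 genes) were at 302 to 518, 110 to 166 and 97.1 to 275 CPM, with 4 of 8 tested genes lower and 0 higher with the control ASO, and 4 lower and 1 higher with the mix than with the control ASO. Summed proliferation markers (8 genes) fell from 24.4 to 39.3 CPM untransfected to 4.83 to 8.53 and 6.196 to 7.25 CPM. Summed satellite glia markers (8 genes) were at 423 to 703, 487 to 648 and 503 to 804 CPM. Of these, 3 were lower and 1 higher with the control ASO, and 4 lower and 1 higher with the mix than with the control ASO. Of 8 endothelial markers, 1 was lower and 0 higher with the control ASO, and 3 lower and 0 higher with the mix than with the control ASO.

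Summed sensory neuron markers (16 genes) were at 7231 to 9500 CPM untransfected, 8233 to 9753 CPM with the control ASO and 9810 to 12024 CPM with the mix, where 9 of 16 were called higher than with the control ASO. Summed macrophage markers (10 genes) were at 21.5 to 32.9, 23.0 to 33.6 and 48.3 to 54.5 CPM, with Cd68, a lysosomal protein, making up most of the sum (41.8 ± 3.45 CPM with the mix against 19.7 ± 3.07 with the control ASO). The median log2 fold change of the 9 tested macrophage genes was -0.31 in that comparison, with 2 higher and 0 lower. The falls of the 21 genes called lower with the control ASO stand beside lower fibroblast, Schwann cell, mural cell and proliferation markers. The 20 rises with the mix over the control ASO, among them those of Dnajb9, Calr, Herpud1 and Syvn1, and the 11 falls stand beside higher neuron markers. In that comparison, more fibroblast, Schwann cell and mural cell markers were lower than higher. Neuron markers were also called higher with the control ASO than untransfected (7 of 16, 0 lower). With the control ASO against untransfected, Calr changed by -0.39 and was called. Dnajb9 (0.24), Herpud1 (0.10) and Syvn1 (0.09) were not called there, and each was higher in 4 of 4 mice. The part of cell makeup in these changes was not tested. The summed level of the 37 genes was 3847 to 4034 CPM untransfected, 3264 to 3577 CPM with the control ASO and 3537 to 4034 CPM with the mix.

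**Figure D5:**
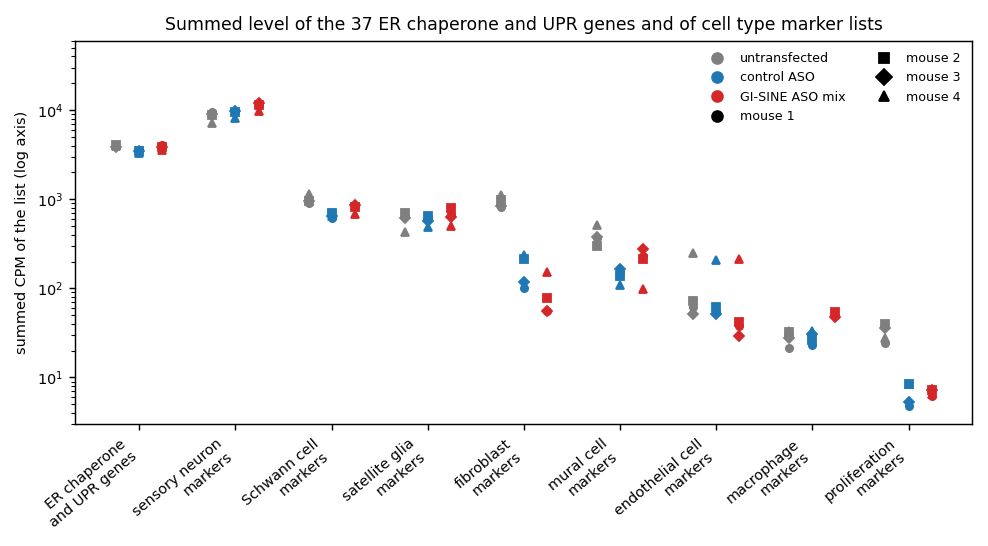
Summed CPM (log axis) of the 37 ER chaperone and UPR genes and of 8 cell type marker lists in each library, coloured by group, with a symbol for each mouse. The fibroblast sum is at 822 to 1124 CPM untransfected and at most 238 CPM in either ASO group, while the sum of the ER genes stays between 3264 and 4034 CPM in all 12 libraries, and the endothelial sum of mouse 4 is above those of the other mice in each group.

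Last, the genes with an ERSE in the promoter window were set beside those without. Of the 8 tested genes with an ERSE, 6 were higher and 1 lower with the mix than with the control ASO (27.3% and 28.8% of all tested genes), and 0 higher and 6 lower with the control ASO than untransfected (10.5% and 13.7% of all tested genes). Of the 22 tested genes with a window and no ERSE, 11 were higher and 7 lower, and 0 higher and 11 lower. Outside these genes 28 other symbols had an ERSE, of which 10 were tested, with 2 higher and 3 lower with the mix and 1 higher and 1 lower with the control ASO. Against untransfected cultures the mix gave 2 higher and 3 lower of the 8 genes with an ERSE. It gave 5 higher and 12 lower of the 22 without, and 1 higher and 2 lower of the 10 others. Of all tested genes, 30.1% were higher and 31.1% lower in that comparison. For the mix against the control ASO, Hspa5 (0.04), Hsp90b1 (0.065) and Canx (-0.0035) did not pass with library size as the sole factor. Neither did genes without an ERSE such as Xbp1 (0.05) and P4hb (0.06). After removal of the length and GC trend, the fall of Dnajc3 did not pass (-0.10, edgeR adjusted p = 0.128). Genes with the same element differed among themselves: Calr rose 0.74 with the mix over the control ASO and Dnajc3 fell by 0.22, and Dnajb11 and Herpud1, both with an ERSE-II, fell by 0.37 and rose by 0.45. Dnajb9, with no exact ERSE match in its window, had the largest rise of the 36.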

How the data were processed

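Total RNA of 12 libraries was measured as raw counts of reads per gene, deposited by the authors. Per the labels' protocols the kits were RNeasy Mini and TruSeq Stranded, with paired reads of 150 bases. Per the submitters' processing notes the tools were bcl2fastq 2.17, STAR and HTSeq, and the builds GRCm38 and mm10. No source used here states the annotation release or strand setting of the counting, so counts of the 12 genes that share exon bases with another gene are uncertain. Symbols, exon lengths and overlaps came from GENCODE release 21 of mouse, which matched 48435 of 48795 IDs; the 360 others stayed in the tests. Of each library's counts, 15.7% to 19.5% lay in Gm23935, Gm42418 and Gm26917.

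Counts were filtered by edgeR's default rule, normalised by TMM, and fitted with group and mouse as terms in a robust quasi-likelihood model over all 12 libraries (edgeR 4.0.16, R 4.3.3), with two-sided Benjamini-Hochberg adjusted p over 16831 genes. Mouse is a term because, per the series design text, libraries with the same number came from the same animal. Deviations from group means of same-numbered libraries had r of 0.138 to 0.557, and the highest r was with the same number in 24 of 24 cases. Per-library log2 CPM used a prior count of 2. No pair of libraries in a group agreed within counting noise. Motifs were searched as exact letters in RefSeq windows of GRCm38.p6. The script was tested on simulated counts.

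Alternatives were a fit with no mouse term, size factors of DESeq2 1.42.0, library size as the sole factor, DESeq2's Wald test, limma-voom (limma 3.58.1), no filter, a stricter filter (10 counts or more in 4 libraries, with mean log2 CPM no lower than 1), a fit of the compared groups alone, removal of the 3 abundant loci, removal of each library's trend in length and GC content, each mouse left out, and a fold change of at least 1.5. The genes, their 9 roles and the gene lists were chosen with earlier results of these data known. Every one of the 37 genes is named; of each other list, up to 3 genes of smallest p per comparison and direction could be named.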

Additional observations from a re-analysis of the deposited data

Results flagged for a closer look

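In each group of 4 libraries, a library was marked when its gap to the nearest other made up more of the group's range than Dixon's 95% critical value for 4 samples. Of 111 groups of a gene and condition, 5 were marked, and chance alone marks about 1 in 20. Hyou1 was at 157 CPM in the mix library of mouse 2, above 142 to 144 CPM in the other mix libraries. Dnajc10 was at 52.0 CPM in the same library, below 55.0 to 55.3 CPM in the others. Edem1 was at 44.1 CPM in the untransfected library of mouse 4 (others 35.7 to 37.2 CPM), and Edem2 at 25.3 CPM in that library (others 30.5 to 31.2 CPM). Syvn1 was at 75.2 CPM in the control ASO library of mouse 4 (others 84.7 to 86.3 CPM).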

How the results depend on the processing

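The calls depended on scaling, on the trend in length and GC content and on single mice. Against the control ASO, 8 of the 36 genes were higher with library size as the sole factor, 13 to 20 with a mouse left out, and 4 with a fold change of at least 1.5, which left 2 lower and, over all genes, 1871 higher and 1619 lower. For the control ASO against untransfected, 1 gene was higher with library size alone, without a filter and after removal of the length and GC trend, 2 with only the groups compared, and 0 to 1 with a mouse left out; a fold change of at least 1.5 left 5 lower, and over all genes 350 higher and 1029 lower. Over all genes, 1775 were higher there, 2729 with only the groups compared and 752 to 1507 with a mouse left out. For the mix against untransfected, the fold criterion left 1 higher and 5 lower, and over all genes 2442 and 2201. Without the replicate block by mouse, 17 genes were higher and 11 lower for the mix against the control ASO, 0 and 17 for the control ASO against untransfected, and 8 and 18 for the mix against untransfected, while 816 instead of 1775 of all genes were higher with the control ASO.

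Of the single-gene values, 33 changed sign, and 3 of these had been called (Canx and Ssr1 against the control ASO, Fkbp2 against untransfected). For the mix against the control ASO, library size alone gave Canx -0.0035, Edem1 -0.087 and Ssr3 -0.10, the stricter filter Pdia4 0.0027, and the length and GC trend Ssr1 0.0071. With a mouse left out, Pdia4 ranged from -0.087 to 0.018, Pdia6 from -0.062 to 0.017 and Ssr3 from -0.0029 to 0.043. For the control ASO against untransfected, Ern1 was -0.0021 with no filter, -0.0078 with only the groups compared, -0.0073 without the 3 abundant loci and -0.049 to 0.024 with a mouse left out, and Sdf2l1 then ranged from -0.0027 to 0.076. Library size alone gave Sel1l 0.029, and the length and GC trend gave Sel1l 0.11 and Edem1 0.031. For the mix against untransfected, library size alone gave Hspa5 -0.038, Creld2 -0.065 and Xbp1 -0.034, and the length and GC trend gave Canx 0.11, Creld2 -0.21, Fkbp2 -0.084, Xbp1 -0.098 and Edem1 0.23. With a mouse left out, Canx ranged from -0.057 to 0.0013, Creld2 from -0.11 to 0.17 and Sec61a1 from -0.028 to 0.032. Sec61a1 was also 0.0089 with DESeq2 size factors, 0.0087 with DESeq2's test, 0.026 with the stricter filter and 0.0064 with only the groups compared. The cause was not tested. The 3 to 41 reads of Fkbp11 limit its precision, and the stricter filter removed it. The planned reading of C-terminal ER retrieval signals was not run.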
